A study of Mus musculus with 10 samples.

Results

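The 10 genes described here build or organize the neuromuscular junction, where motor nerve meets muscle fiber. They were taken by symbol from a list of muscle acetylcholine receptor subunits (*Chrna1*, *Chrnb1*, *Chrnd*, *Chrne* and *Chrng*) and synapse organizers (*Agrn*, *Lrp4*, *Musk*, *Dok7* and *Rapsn*), and all 10 were found among 25700 genes counted in each mouse. All 10 passed the filter on low counts, which left 14410 genes. RNA came from regenerating TA (tibialis anterior) muscle, 1 muscle sample from each of 5 Pax7Cre and 5 miR-501KO mice.

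Pax7Cre mice carried the Cre recombinase under the Pax7 promoter and are labelled wild type for the microRNA. The miR-501KO group had the same Cre and a floxed X-linked *Mir501* allele (Pax7CremiR-501fl/Y), and its labelled genotype is miR-501 −/−. This Cre is not inducible and, by the study's methods, removes the microRNA in the myogenic lineage. Deletion in other cells of the muscle was not tested here. All 10 mice were C57BL/6 males aged 12 weeks, the controls were littermates, and every TA muscle had been injected with cardiotoxin (CTX), a toxin that destroys muscle fibers, and was collected on day 6. Totals of counts lay between 18609222 and 22064583 in Pax7Cre mice and between 20046670 and 24753258 in miR-501KO mice. Counts of *Mir501* itself were not analysed here, so the labels were not checked against the deleted gene.

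The acetylcholine receptor of skeletal muscle is a channel of several subunits that opens when the motor nerve releases its transmitter. Fetal and denervated fibers use the gamma subunit, and innervated adult fibers replace it with the epsilon subunit. Agrin from the nerve binds Lrp4, which activates the kinase MuSK together with Dok7, and rapsyn then gathers receptors under the nerve ending.

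Markers of the labelled tissue were abundant. The 8 mature fiber markers summed to 28290 ± 10950 CPM (counts per 1000000 in the library, scaled by TMM, a trimmed mean of ratios between libraries; SD, n = 5) in Pax7Cre and 29380 ± 3566 CPM (SD, n = 5) in miR-501KO mice, and *Ckm* was the most abundant. The 7 regenerating fiber markers, among them embryonic myosin *Myh3*, summed to 7370 ± 883.5 and 7699 ± 892.8 CPM (SD, n = 5 each). Leukocyte markers reached 4126 ± 545.8 CPM (SD, n = 5) in Pax7Cre and 4099 ± 338.2 CPM (SD, n = 5) in miR-501KO mice. Of 5 motor neuron terminal markers, *Chat* and *Slc18a3* had 0 counts in each mouse, which allows up to 0.159 CPM (3 counts in the library that is smallest after TMM scaling, counting error only). Schwann cell markers were detected at low levels, with sums of 47.47 ± 9.584 and 47.39 ± 7.458 CPM (SD, n = 5 each). The cell bodies of motor neurons lie outside the muscle. In whole muscle, fewer cells of a type and less RNA per cell cannot be told apart.

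*Chrng*, which encodes the fetal gamma subunit (Ensembl ENSMUSG00000026253, GRCm38 chromosome 1, 87204657 to 87212694, plus strand), had between 579 and 1959 counts per mouse. In Pax7Cre mice 1 to 5 its level was 40.6, 30.6, 40.4, 78.6 and 49.7 CPM. In miR-501KO mice 1 to 5 it was 46.9, 52.2, 41.6, 47.4 and 50.2 CPM. Pax7Cre mouse 4 had the highest and Pax7Cre mouse 2 the lowest *Chrng* of all 10 mice, and each miR-501KO mouse lay between them. The groups overlapped, with means of 48.0 ± 18.4 CPM (SD, n = 5) in Pax7Cre and 47.7 ± 4.01 CPM (SD, n = 5) in miR-501KO mice. The log2 fold change, miR-501KO against Pax7Cre, was −0.011 (95% interval −0.44 to 0.42, adjusted p = 1.00 from edgeR; exact two-sided permutation p = 0.984). Its sign turned without Pax7Cre mouse 4 (0.24, unadjusted p = 0.0678 from edgeR), Pax7Cre mouse 5 (0.0017) or miR-501KO mouse 3 (0.035).

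*Chrne* encodes the adult epsilon subunit (ENSMUSG00000014609, chromosome 11, 70614883 to 70619216, minus strand) and was counted only 100 to 175 times per mouse. Its level was 5.02, 7.44, 5.44, 4.01 and 6.22 CPM in Pax7Cre mice 1 to 5. It was 6.08, 5.19, 4.54, 6.57 and 7.42 CPM in miR-501KO mice 1 to 5. Here the order at the ends was the opposite of that for *Chrng*: Pax7Cre mouse 2 was highest and Pax7Cre mouse 4 lowest. All 5 miR-501KO mice lay within the range of the Pax7Cre mice. The log2 fold change was 0.088 (95% interval −0.30 to 0.47, adjusted p = 1.00 from edgeR; exact two-sided permutation p = 0.659), and it was −0.015 without Pax7Cre mouse 4 and −0.0049 without miR-501KO mouse 5.

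**Figure D1:**
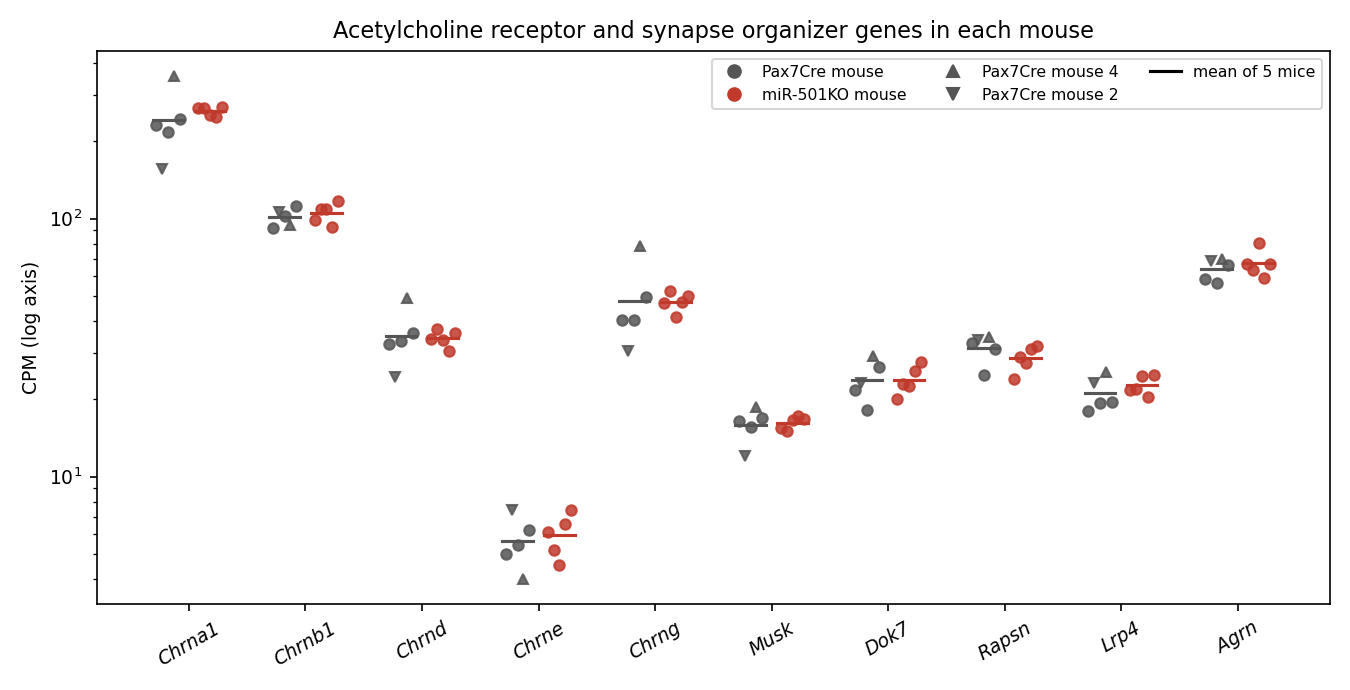
CPM of the 10 genes on a log axis, 1 symbol per mouse, with lines at the mean of 5 mice; grey is Pax7Cre and red is miR-501KO. Pax7Cre mouse 4 (upward triangles) reaches 78.6 CPM of *Chrng* and mouse 2 (downward triangles) 30.6 CPM, with the order turned round for *Chrne*.

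To compare the subunits within a mouse, counts were divided by the length of annotated exons, which is 4163 bases for *Chrng* and 1690 bases for *Chrne*. In the GENCODE annotation used here *Chrng* starts upstream of its RefSeq start, so the ratio per kilobase depends on the annotation. Per kilobase, *Chrng* exceeded *Chrne* in 10 of 10 mice. The ratio was 3.28, 1.67, 3.01, 7.95 and 3.24 in Pax7Cre mice 1 to 5. In miR-501KO mice 1 to 5 it was 3.13, 4.08, 3.72, 2.93 and 2.75. Pax7Cre mice 2 and 4 again took the ends, and their counting intervals do not touch (95% Wilson intervals from 1.39 to 2.00 and from 6.51 to 9.72, for counting error only). The geometric mean over the 10 mice was a ratio of 3.32 (95% interval 2.51 to 4.38; exact sign-flip permutation p = 0.00195, the smallest that 10 mice allow). It was 4.75 with the longest annotated transcript of each gene as its length, and the ratio of counts, without length, was 8.18.

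Between the genotypes the ratio was compared on the log2 scale. The means were 1.75 ± 0.81 (SD, n = 5) in Pax7Cre and 1.72 ± 0.24 (SD, n = 5) in miR-501KO mice. Their difference, −0.030 (95% interval −0.90 to 0.84), was smaller than the SD of either group. The exact two-sided permutation test on this difference gave p = 0.921, where 5 against 5 allow 0.00794 at least. The interval spans both directions, so shifts of the gamma to epsilon balance within it, up or down, remain compatible with these mice. Leaving out Pax7Cre mouse 4 gave a difference of 0.28 (exact permutation p = 0.302) and leaving out Pax7Cre mouse 2 one of −0.28 (exact permutation p = 0.516). It was 0.012 without miR-501KO mouse 4 and 0.035 without miR-501KO mouse 5.

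The subunit ratio was set beside the state of the fibers, taken as the mean log2 CPM of the mature or of the regenerating markers, in 6 relations over the 10 mice. The log2 ratio fell with mature markers (Pearson r = −0.868, permutation p = 0.00644, adjusted p = 0.0193 over 6 relations; Spearman rho = −0.673, permutation p = 0.0389, adjusted p = 0.0779). *Chrne* rose with mature markers (r = 0.797, permutation p = 0.00475, adjusted p = 0.0193; rho = 0.806, permutation p = 0.00739, adjusted p = 0.0443). Taken as deviations from genotype means, *Chrne* passed by Pearson (r = 0.791, permutation p adjusted to 0.0215) and missed by Spearman (rho = 0.733, permutation p adjusted to 0.12). For *Chrng* and mature markers, r was −0.721 (permutation p = 0.0275, adjusted p = 0.0551), while rho was only −0.164 (permutation p = 0.658, adjusted p = 0.658). As deviations from genotype means, this r was −0.756 (permutation p adjusted to 0.0477) and rho −0.321 (permutation p adjusted to 0.371). Pax7Cre mouse 2 had the highest mature score, 0.71 above the mean on the log2 scale, and Pax7Cre mouse 4 had the lowest, at −0.66. Without these 2 mice, which lie farthest from the median, r was −0.257 for the ratio (exact permutation p = 0.533), 0.528 for *Chrne* (exact permutation p = 0.176) and 0.501 for *Chrng* (exact permutation p = 0.198). By rank, rho was −0.357, 0.619 and 0.643 (exact permutation p = 0.389, 0.115 and 0.0962). The relation of *Chrne* thus kept its sign over the 8 mice, at a smaller r and rho, without reaching the threshold. That of the ratio was weaker, and the sign for *Chrng* turned. The size of the relations of the ratio and of *Chrng* rests on 2 mice of 1 genotype.

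Against regenerating markers, *Chrng* had r = 0.726 (permutation p = 0.0385, adjusted p = 0.0577; rho = 0.685, permutation p = 0.0345, adjusted p = 0.0779). Leaving out Pax7Cre mouse 2 and miR-501KO mouse 4, the 2 farthest on this score, r was 0.803 (exact permutation p = 0.0105, adjusted p = 0.0628) and rho 0.69 (exact permutation p = 0.0694, adjusted p = 0.23). The log2 ratio had r = 0.722 (permutation p = 0.0511, adjusted p = 0.0613; rho = 0.539, permutation p = 0.112, adjusted p = 0.168), and 0.496 without the same mice (exact permutation p = 0.225). For *Chrne*, r was −0.515 (permutation p = 0.127, adjusted p = 0.127; rho = −0.382, permutation p = 0.279, adjusted p = 0.334) and 0.0435 without them (exact permutation p = 0.918). The 3 relations to regenerating markers missed an adjusted p of 0.05. Taken as deviations from genotype means, those of *Chrng* (r = 0.723) and of the ratio (r = 0.736) passed it by Pearson, each at a permutation p adjusted to 0.0477, and missed it by Spearman (rho = 0.661 and 0.515, permutation p adjusted to 0.12 and 0.20). A part of fiber content in the spread of the receptor genes was not tested beyond these relations.

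**Figure D2:**
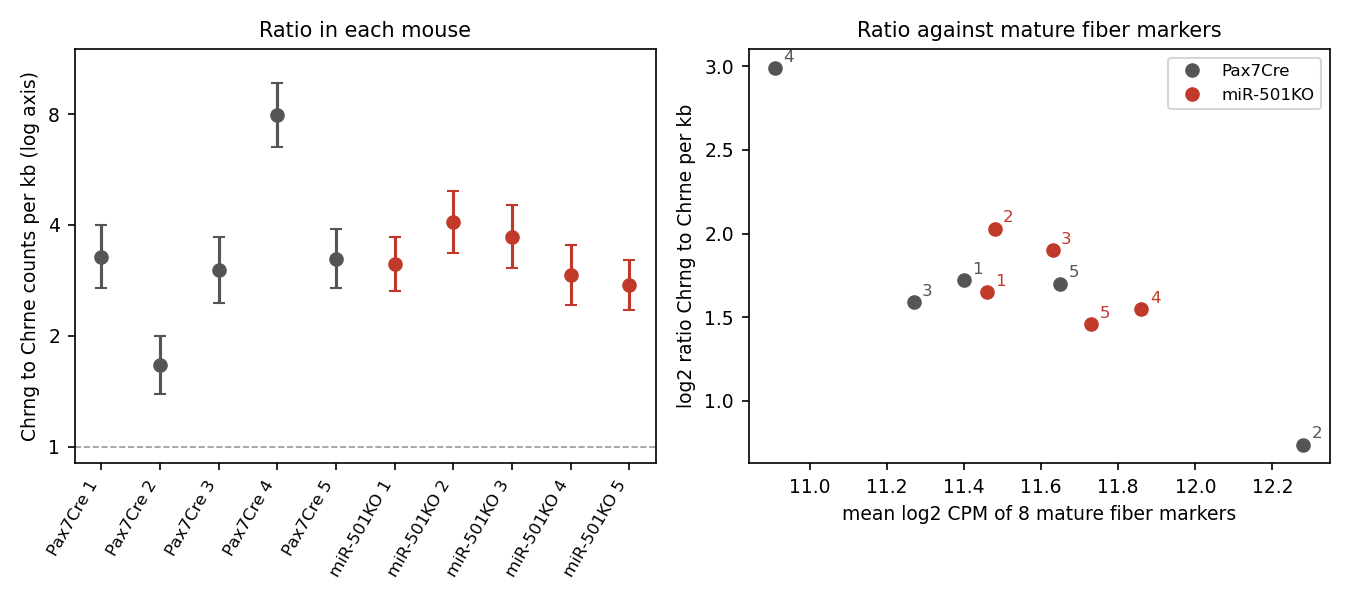
Left, ratio of *Chrng* to *Chrne* counts per kilobase in each mouse on a log axis, with 95% Wilson counting intervals and a dashed line at 1. Right, the log2 ratio against the mean log2 CPM of the 8 mature fiber markers, numbered by mouse; Pax7Cre mice 4 and 2 sit at opposite ends, at ratios of 7.95 and 1.67.

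Of the other receptor subunit genes, *Chrna1* and *Chrnd* varied widely between mice and *Chrnb1* did not. *Chrna1* encodes the alpha subunit, which carries the transmitter binding sites, and stood at 230, 156, 217, 357 and 242 CPM in Pax7Cre mice 1 to 5. In miR-501KO mice 1 to 5 it stood at 269, 267, 251, 247 and 271 CPM. *Chrnd*, for the delta subunit, was at 32.7, 24.3, 33.5, 49.3 and 35.9 CPM in Pax7Cre mice 1 to 5. Both genes shared their highest mouse, Pax7Cre 4, and their lowest, Pax7Cre 2, with *Chrng*, and all miR-501KO mice lay inside the Pax7Cre range. In miR-501KO mice *Chrnd* was between 30.8 and 37.4 CPM. *Chrnb1*, for the beta subunit, lay between 92.2 and 117 CPM over all mice and was highest in miR-501KO mouse 5.

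For *Chrna1* the log2 fold change was 0.12 (95% interval −0.24 to 0.48; exact permutation p = 0.548). It was 0.30 without Pax7Cre mouse 4 (unadjusted p = 0.0233, adjusted p = 0.996 from edgeR) and −0.0063 without Pax7Cre mouse 2. *Chrnd* had a log2 fold change of −0.033 (95% interval −0.35 to 0.28; exact permutation p = 0.857), which was 0.12 without Pax7Cre mouse 4 and 0.0040 without miR-501KO mouse 4. *Chrnb1* had one of 0.057 (95% interval −0.13 to 0.24; exact permutation p = 0.484).

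Of the organizers, *Agrn* encodes agrin, which nerve and muscle both make, and ranged from 56.2 to 80.3 CPM. *Lrp4*, the agrin receptor, ranged from 17.96 to 25.4 CPM. The kinase gene *Musk* ranged from 12.0 to 18.6 CPM, and it alone among the organizers was highest in Pax7Cre mouse 4 and lowest in Pax7Cre mouse 2. Pax7Cre mouse 4 was also the highest mouse for *Lrp4*, *Dok7* and *Rapsn*. The share of all genes tested that were highest in this mouse was not counted. *Dok7*, the adaptor that MuSK needs, ranged from 18.1 to 29.2 CPM. *Rapsn*, whose product anchors the receptor, ranged from 23.8 to 34.6 CPM, with 4 of its 1802 exon bases shared with a gene on the opposite strand. The log2 fold changes of the organizers lay between −0.13 for *Rapsn* (95% interval −0.36 to 0.10; exact permutation p = 0.270) and 0.11 for *Lrp4* (95% interval −0.12 to 0.33; exact permutation p = 0.325). They were 0.074 for *Agrn* and 0.019 for *Musk*, and that of *Dok7* was 5.1e-05. The sign for *Musk* turned without Pax7Cre mouse 2 (−0.068) or miR-501KO mouse 4 (−0.0020). That for *Dok7*, at nearly 0, turned without any of Pax7Cre mice 1, 2 and 3 or miR-501KO mice 4 and 5, down to −0.081. Without Pax7Cre mouse 3, *Rapsn* was at −0.20 (unadjusted p = 0.0435, adjusted p = 1.00 from edgeR).

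Of the 10 genes, 0 had an adjusted p under 0.05 in edgeR, the same as the 0 of 14410 genes tested (0%). At an unadjusted p under 0.05 there were 0 of 10, beside 151 of all genes (1.05%, 55 higher and 96 lower), and DESeq2 and limma-voom also gave 0 of the 10. Over all genes DESeq2 gave 52 higher and 98 lower, and limma-voom 69 and 85. Of the 10, 7 had a log2 fold change above 0 and 3 below, with a median of 0.038. Among all genes tested 47.9% were above 0, and the median was −0.0042. In none of the 10 did the groups separate, which they did in 20 of all genes tested (0.139%). The widest interval, that of *Chrng*, ran from −0.44 to 0.42, so differences within it on the log2 scale remain compatible with the counts of this gene.

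**Figure D3:**
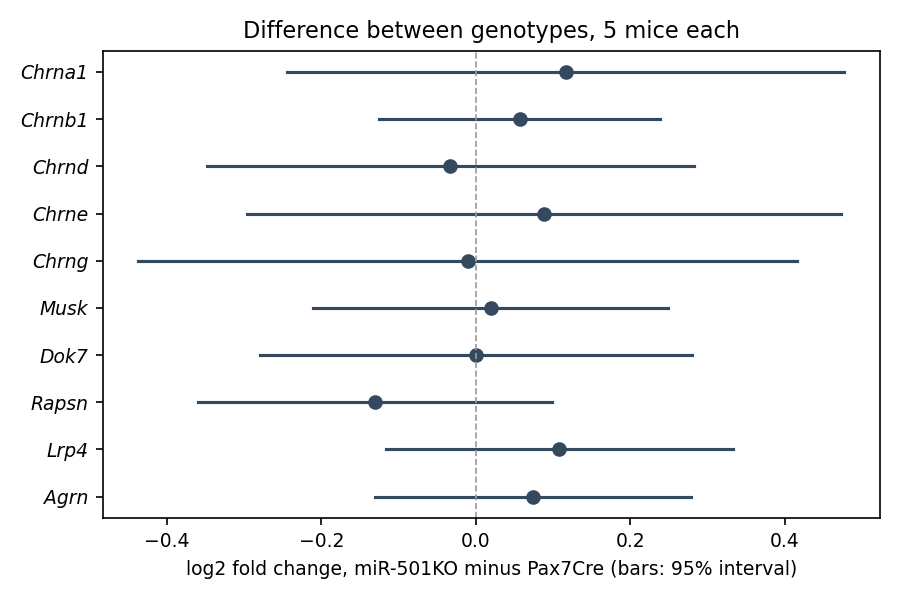
Log2 fold change of each gene, miR-501KO against Pax7Cre, with its 95% interval from edgeR (5 mice per genotype). Every interval spans 0, and the widest, that of *Chrng*, runs from −0.44 to 0.42.

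The spread between mice was widest for *Chrng*, *Chrna1* and *Chrnd*. The highest over the lowest mouse was 2.57 times for *Chrng*, 2.28 times for *Chrna1* and 2.03 times for *Chrnd*, and 1.27 times for *Chrnb1*. Within Pax7Cre mice the coefficient of variation of *Chrng* was 38.4%, and within miR-501KO mice 8.42%. For *Chrnb1* these were 7.91% and 9.13%. The SD of log2 CPM was larger in Pax7Cre than in miR-501KO mice for 8 of the 10 genes, close to the 79.2% of all genes tested. Of the 10 genes, 4 were highest in Pax7Cre mouse 4 and lowest in Pax7Cre mouse 2, a pattern of 8.38% of all genes tested. The pattern is that of *Chrng*, which is among the 4, and was chosen after the values were seen. The comparison is therefore a description only. The reverse held for *Chrne* alone of the 10, and for 10.8% of all genes. Of the 8 mature fiber markers, 6 had that reverse pattern, and 3 of the 7 regenerating markers had the pattern of *Chrng*. Other regenerating markers went the other way. *Myl4* was lowest of all mice in Pax7Cre mouse 4, and *Actc1* was lower in Pax7Cre mouse 4 (2600 CPM) than in Pax7Cre mouse 2 (2790 CPM). The rest were higher in Pax7Cre mouse 4 than in Pax7Cre mouse 2. Summed mature markers were 24800, 46300, 22600, 17900 and 29800 CPM in Pax7Cre mice 1 to 5 and 26100, 26100, 29000, 34400 and 31400 CPM in miR-501KO mice 1 to 5. Summed regenerating markers, with *Actc1* the most abundant, were 7180, 6260, 7750, 7020 and 8630 CPM in Pax7Cre mice and 7890, 7820, 8590, 6200 and 8010 CPM in miR-501KO mice. By the mean log2 score, which weights each marker equally, Pax7Cre mouse 2 was lowest for regenerating markers (8.60) and Pax7Cre mouse 4 highest (9.09). Leukocyte markers, with *Lyz2* the most abundant, were lowest in Pax7Cre mouse 2, at 3600 CPM, and at 4100 CPM in Pax7Cre mouse 4. Of the 6 leukocyte markers, *Cd68* and *Itgam*, named after their values were seen, had the pattern of *Chrng*. *Itgam* shares 3450 of its 5024 exon bases with a gene on the same strand. The others did not have this pattern. *Lyz2* and *C1qa* were highest in Pax7Cre mouse 1, and *Adgre1* in miR-501KO mouse 1. *Ptprc* was higher in Pax7Cre mouse 2 (147 CPM) than in Pax7Cre mouse 4 (129 CPM). Summed Schwann cell markers, with *Mbp* the most abundant, were highest in Pax7Cre mouse 2 (62.5 CPM) and lowest in Pax7Cre mouse 4 (38.6 CPM). Fibroblast and endothelial markers, a sum led by *Dcn*, stood at 1700 and 1090 CPM in these mice, and each of the 4 was higher in Pax7Cre mouse 2 than in Pax7Cre mouse 4. *Slc5a7*, the only motor neuron terminal marker tested, had the pattern of *Chrng*, at 1.64 CPM in Pax7Cre mouse 4 and 0.211 CPM in Pax7Cre mouse 2. So had 1 of 3 satellite cell markers tested. The part of these cell types in the receptor genes was not tested.

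Levels of different genes can be ordered only per length. Per kilobase of exon, *Chrna1* was highest at 57.2 ± 11.5 CPM (SD, n = 10), ahead of *Chrnb1* at 40.8 ± 3.40 in 9 of 10 mice. *Rapsn* followed at 16.7 ± 2.06 CPM per kilobase, below *Chrnb1* in each mouse. Then came *Chrng* at 11.5 ± 3.02 and *Chrnd* at 10.6 ± 1.91, which were close: *Chrng* was the higher in 6 of 10 mice. *Agrn* (7.05 ± 0.75), *Dok7* (5.55 ± 0.822) and *Musk* (4.24 ± 0.46) kept this order in 10 of 10 mice for each neighbouring pair. *Chrne* came ninth at 3.43 ± 0.685 CPM per kilobase, ahead of *Lrp4* at 2.08 ± 0.246 in 9 of 10 mice. Of all neighbours in this order, only *Chrnb1* and *Rapsn* had ranges over the mice that do not overlap. With the longest transcript as the length, *Agrn* and *Dok7* changed places, and *Chrng* exceeded *Chrnd* in 10 of 10 mice.

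Among all other genes tested, 5 followed *Chrng* most closely over the 10 mice by Pearson r of log2 CPM, given as a description. They were *Igsf8* (r = 0.985), *Map1s* (0.974), *Ppp1r18* (0.973), *Dazap1* (0.972) and *Snai1* (0.97). Without Pax7Cre mice 2 and 4, left out after the values were seen, r was 0.943, 0.915, 0.931, 0.81 and 0.90. Of the receptor genes themselves, *Chrna1* and *Chrnd* had r of 0.944 and 0.945 with *Chrng*, and 0.748 and 0.578 without those mice. *Chrnb1* had r = −0.158, and 0.462 without them. Those most like *Chrne* were *Srcin1* (0.946, from only 3 to 17 counts per mouse), *Kcnq5* (0.921), *Mat2a* (0.918), *Abca6* (0.917) and *Cacna2d1* (0.899), and without those mice r was 0.903, 0.886, 0.85, 0.837 and 0.78. *Chrne* and *Chrng* had r = −0.514, and 0.596 without those mice. The genes most like *Chrng* and *Chrne* were picked for their r over all 10 mice. Their r in part of these mice is therefore no independent check. *Chrna1*, *Chrnd* and *Chrnb1* were not picked in this way.

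Related genes were examined as lists, with counts and medians only. Of 11 neuronal receptor subunits, 3 passed the filter, *Chrna4*, *Chrna7* and *Chrnb2*, with at most 35 counts per mouse, and *Chrna3* had 0 counts in every mouse. Their log2 fold changes ran from −0.17 for *Chrna7* to 0.04 for *Chrnb2*, with a median of 0.026 and 0 of 3 at an unadjusted p under 0.05 in edgeR. *Chrnb2* shares 1365 of its exon bases with *Adar* on the opposite strand. The neuronal list summed to 2.91 ± 0.312 CPM (SD, n = 5) in Pax7Cre mice and 2.98 ± 0.607 CPM (SD, n = 5) in miR-501KO mice.

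Of 13 genes of the synaptic cleft and postsynaptic membrane, all 13 were tested, 7 were higher and 6 lower, with a median of 0.030 and 0 past an adjusted p of 0.05 in edgeR. At an unadjusted p under 0.05 in edgeR there was 1 of 13, beside 1.05% of all genes tested. *Colq*, the collagen tail that anchors acetylcholinesterase in the cleft, had the highest log2 fold change, 0.31 (95% interval 0.028 to 0.60, unadjusted p = 0.0339, adjusted p = 1.00 from edgeR; exact permutation p = 0.0476). It was at 6.09, 6.49, 5.18, 7.86 and 5.88 CPM in Pax7Cre mice 1 to 5, and at 7.84, 7.98, 6.25, 8.58 and 8.60 CPM in miR-501KO mice 1 to 5. The groups overlapped, and 199 of its 3803 exon bases are shared with a gene on the same strand. *Sntb1*, a syntrophin, had the lowest, −0.093, and *Ache*, the enzyme itself, had 0.14 (95% interval −0.11 to 0.39) and was chosen after its values were seen. In agrin and neuregulin signalling 13 of 14 genes were tested, 9 higher and 4 lower, with a median of 0.029 and 0 at an unadjusted p under 0.05. The extremes were *Erbb2*, a neuregulin receptor, at 0.15 and *Ctnnb1* at −0.053.

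Of 12 genes that respond to denervation and activity, 11 were tested, 7 higher and 4 lower, with a median of 0.053 and 0 past an adjusted p of 0.05. At an unadjusted p under 0.05 in edgeR there was 1 of 11, beside 1.05% of all genes tested. *Hdac9*, a deacetylase that represses muscle genes, was at 8.87, 9.87, 8.72, 10.9 and 9.75 CPM in Pax7Cre mice 1 to 5. In miR-501KO mice 1 to 5 it was at 12.6, 13.4, 9.74, 11.3 and 11.2 CPM, and 4 of these mice were above each Pax7Cre mouse. The log2 fold change of *Hdac9* was 0.28 (95% interval 0.048 to 0.50, unadjusted p = 0.0216, adjusted p = 1.00 from edgeR; exact permutation p = 0.0317). The lowest was that of the ubiquitin ligase gene *Trim63*, at −0.095. In this list 5 of 11 genes were highest in Pax7Cre mouse 4 and lowest in Pax7Cre mouse 2, as *Chrng* was, beside 8.38% of all genes. The reverse held for 2 of 11, *Trim63* and *Fbxo32* (the latter named after its values were seen), beside 10.8% of all genes.

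Of the cell type markers tested, 0 in each list were at an unadjusted p under 0.05 in edgeR. The median log2 fold change was 0.053 for mature fiber markers (from −0.038 for *Myh4* to 0.13 for *Actn3*) and 0.028 for regenerating markers (from −0.067 for *Myl4* to 0.18 for *Actc1*). For satellite cell markers it was 0.027 (from −0.15 for *Vcam1* to 0.051 for *Pax7*), and for Schwann cell markers 0.027 (from −0.19 for *S100b* to 0.33 for *Mal*). Leukocyte markers had a median of 0.016 (from −0.027 for *Ptprc* to 0.066 for *Itgam*), and fibroblast and endothelial markers one of −0.051 (from −0.078 for *Dcn* to −0.0070 for *Pecam1*). Of the motor neuron terminal markers only *Slc5a7*, the choline transporter gene, was tested, at −0.41 (95% interval −1.21 to 0.39), with between 4 and 41 counts per mouse.

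*Chrnd* and *Chrng* are neighbours on chromosome 1, where *Chrnd* ends at 87200070 on the same strand, 4587 bases before the annotated start of *Chrng*. Over the 10 mice *Chrng* and *Chrna1* moved together and *Chrne* did not, a contrast that rests on Pax7Cre mice 2 and 4 (without them, r with *Chrng* was 0.748 for *Chrna1* and 0.596 for *Chrne*). The promoter windows of these 3 genes are shown for this reason, from RefSeq (GRCm38.p6), each with 250 bases before and 50 after the RefSeq start, which for *Chrng* lies inside the GENCODE gene. Windows were found for 7 of the 10 genes (9 windows), and *Chrnd*, *Rapsn* and *Lrp4* had none. Capitals mark the letters CAGCTG, an E-box bound by myogenic factors, and CCGGAA, the N-box known from synaptic genes. The *Chrna1* window lies at chr2:73580289-73580588 on the minus strand, that of *Chrng* at chr1:87205561-87205860 on the plus strand and that of *Chrne* at chr11:70619145-70619444 on the minus strand.
Chrna1: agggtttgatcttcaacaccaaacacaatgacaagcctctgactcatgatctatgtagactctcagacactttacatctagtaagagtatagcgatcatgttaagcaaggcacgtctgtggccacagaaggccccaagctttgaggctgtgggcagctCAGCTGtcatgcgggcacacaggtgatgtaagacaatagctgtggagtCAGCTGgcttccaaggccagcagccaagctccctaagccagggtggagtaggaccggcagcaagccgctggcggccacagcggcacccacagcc
Chrng: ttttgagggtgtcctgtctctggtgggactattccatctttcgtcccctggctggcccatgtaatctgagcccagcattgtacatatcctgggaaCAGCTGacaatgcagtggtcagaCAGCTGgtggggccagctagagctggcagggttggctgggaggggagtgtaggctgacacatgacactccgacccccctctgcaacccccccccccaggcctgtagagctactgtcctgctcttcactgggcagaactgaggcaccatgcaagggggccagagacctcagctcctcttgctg
Chrne: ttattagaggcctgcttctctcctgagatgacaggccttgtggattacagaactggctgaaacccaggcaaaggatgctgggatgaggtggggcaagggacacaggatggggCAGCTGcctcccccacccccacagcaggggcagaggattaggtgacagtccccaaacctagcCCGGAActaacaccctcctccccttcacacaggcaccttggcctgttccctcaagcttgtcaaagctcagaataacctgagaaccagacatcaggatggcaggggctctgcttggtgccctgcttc

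CAGCTG, which reads the same on both strands and is contained in the wider E-box CANNTG, occurred 2 times in the *Chrng* window, at −155 and −132 from the start. It also occurred 2 times in the *Chrna1* window and 1 time each in those of *Chrne* and *Musk*. Of all 32851 windows, 16.3% hold these letters. The wider CANNTG was found 3 times each in the windows of *Chrng*, *Chrna1*, *Musk* and *Chrnb1*, and 72.3% of all windows hold it. CCGGAA, searched on both strands, occurred in 1 of the 9 windows, that of *Chrne*, at −76 from the start, and is held by 14.9% of all windows. Among the 14071 windows of genes tested, 24.9% hold CCGGAA, 16.0% CAGCTG and 64.7% the wider form. These matches are letters in a window and were not tested for binding.

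The deleted microRNA is shown because its seed sets which letters were searched in these genes. Mature miR-501-3p (RefSeq, GRCm38.p6, chrX:7241270-7241291, minus strand), with bases 2 to 8 in capitals, reads:
miR-501-3p: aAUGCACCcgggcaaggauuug

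The complement of these bases, GGTGCAT, was looked for in the annotated 3′ untranslated ends of all 10 genes (GENCODE M21, GRCm38). It was found 1 time, in *Chrna1* at chr2:73564614-73564620 on the minus strand. Of 14069 genes tested with such an end, 8.24% hold the letters. The *Chrna1* match, in capitals within the 3′ untranslated end, reads:
Chrna1 match: agcaaccacagGGTGCATggtggctcaca

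Of the 10 genes, *Chrna1* thus holds the only match, and its log2 fold change of 0.12 had an interval spanning 0.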

How the data were processed

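According to the submitters' processing notes, the authors aligned reads with STAR to GRCm38.p5 and counted them with featureCounts, with R 3.5.1; libraries were stranded, and the strand setting in counting and the handling of reads matching several genes are not given in the sources used here. The authors deposited raw counts per gene and mouse. Symbols and exon lengths came from GENCODE M21, a later release, for 25664 of 25700 identifiers.

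In R 4.3.3, edgeR 4.0.16 (TMM factors, filterByExpr, minimum count 10, minimum total 15) tested genotype with its quasi-likelihood test and Benjamini-Hochberg adjustment over all genes. The older form of that fit, the default in this version, was kept with its counts of genes known; the newer form was added after seeing the data. DESeq2 1.42.0 and limma 3.58.1 were alternatives. CPM use TMM library sizes. Exact permutation tests were two-sided; correlations over 10 mice used 100000 resamples, and exact ones 8 mice. Members and lists were chosen with earlier results of these data known. Genes named are the 10 members, extremes of the lists and those at an unadjusted p under 0.05, and the 5 genes most like *Chrng* and *Chrne*. No library was a copy of another of its genotype (chi-square per degree of freedom at least 9.51, over genes averaging 50 counts or more). The tests of genotype by edgeR, DESeq2 and limma-voom were tried on simulated counts with the same dispersion in both genotypes. The permutation functions were tried on made-up numbers with known answers.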

Additional observations from a re-analysis of the deposited data

Results flagged for a closer look

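In each genotype, the 10 genes and the *Chrng* to *Chrne* ratio were checked for any mouse lying apart, in 22 groups of 5 mice. The ratio in Pax7Cre mouse 4 was such a value, 7.95 per kilobase, beside 1.67 to 3.28 in the other Pax7Cre mice. Its gap to the nearest mouse was 0.743 of the range, past the limit for 5 mice. On the log2 scale the gap was 0.566 of the range and did not pass. It rests on 1959 counts of *Chrng* and 100 of *Chrne*. Chance flags about 1 in 20 groups, or 1.1 of these 22. The same mouse had the lowest mature fiber score, and a part of fiber content in its ratio was not tested.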

How the results depend on the processing

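With DESeq2's size factors, other filters, the replicate block, DESeq2, limma-voom, the newer edgeR form or any mouse left out, 0 genes passed an adjusted p of 0.05. Counts at an unadjusted p below 0.05 (55 up, 96 down) were 153 and 159 without a filter and 36 and 100 with at least 10 counts in every mouse. They were 54 and 98 with DESeq2's size factors, 52 and 98 with DESeq2, 69 and 85 with limma-voom and 58 and 102 with the newer form. Leaving out each mouse gave 39 to 267 up and 59 to 242 down, and 0 to 1 of the 10 genes: 267 and 186 without Pax7Cre mouse 2, 228 and 242 without Pax7Cre mouse 4, and 59 down without miR-501KO mouse 1. Without Pax7Cre mice 2 and 4 together, chosen after seeing the data, they were 279 and 252, with 2 of the 10 genes, *Chrna1* (0.18) and *Lrp4* (0.26).

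Log2 fold changes near 0 turned, and the cause was not tested. *Chrng* was 0.0607 with limma-voom, 0.13 without Pax7Cre mice 2 and 4, and −0.14 to 0.24 without each mouse. Without Pax7Cre mice 2 and 4 *Chrnd* was 0.0154 and *Musk* −0.0139, and without each mouse they were −0.14 to 0.12 and −0.0676 to 0.0828. Without each mouse *Chrna1* was −0.00625 to 0.30 and *Chrne* −0.0153 to 0.21. Others moved without a turn of sign: *Agrn* was 0.00116 to 0.118, *Lrp4* 0.0564 to 0.187, *Chrnb1* 0.0155 to 0.0999 and *Rapsn* −0.205 to −0.0702. *Dok7* was −0.00102 with DESeq2's size factors, −0.00214 without a filter, −0.00447 with at least 10 counts in every mouse, −0.00062 with DESeq2, and −0.0813 to 0.087 without each mouse.

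The difference of the log2 ratio between genotypes was −0.28 to 0.28 without each mouse (exact permutation p from 0.302 to 0.984) and 0.049 without Pax7Cre mice 2 and 4. Within mice the mean log2 ratio was 1.59 to 1.84 without each mouse (exact permutation p = 0.00391), 2.25 with the longest transcript and 3.03 for counts. Without the 2 farthest mice, r with mature markers was 0.50 for *Chrng*, 0.53 for *Chrne* and −0.26 for the ratio, and r with regenerating markers was 0.0435 for *Chrne*; adjusted p over the 6 relations then lay between 0.0628 and 0.918. With deviations from genotype means, relations that had missed an adjusted p of 0.05 passed it by Pearson at 0.0477: *Chrng* with mature (r = −0.76) and regenerating markers (0.72), and the ratio with regenerating markers (0.74). By Spearman their adjusted p was 0.371, 0.12 and 0.20, and that of *Chrne* with mature markers went from 0.0443 to 0.12.

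Equal mouse numbers do not pair the mice: correlations of deviations by number were 0.417, −0.197, 0.169, −0.381 and 0.304. With the replicate block, counts at an unadjusted p below 0.05 were 87 up and 102 down, *Chrng* was 0.0597, *Chrnd* 0.000433, and the ratio difference −0.030 (exact sign-flip permutation p = 0.875, where 5 pairs allow 0.0625 at least). Depth limits *Chrne*, with 100 to 175 counts per mouse.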
